A study of Homo sapiens with 3 samples.

Results

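The subunits of oxidative phosphorylation were described across 3 expression arrays of YB5 colon cancer cells. Members were the gene probes whose name in the scanner files begins with NDUFA, NDUFB, NDUFC, NDUFS or NDUFV and a digit, with COX4 to COX8, with ATP5 or with UQCR, or is SDHA, SDHB, SDHC or SDHD. This gave 127 of 41000 probes, which stand for 84 of 18615 genes with a name: 38 of complex I, 4 of complex II, 8 of complex III, 17 of complex IV and 17 of complex V. The rule used names alone and no measured value. It also took in 3 names that are no subunit, COX4NB, ATP5SL and ATP5S, which RefSeq now calls EMC8, DMAC2 and DMAC2L. Unless stated otherwise, these 3 are counted with the subunit genes, COX4NB under complex IV and ATP5SL and ATP5S under complex V.

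YB5 is 1 clone derived from the SW48 colon cancer line, with a GFP reporter held silent by methylation of its promoter. Cells received 25 nM decitabine, an inhibitor of DNA methylation, or 20 µM carboplatin, a platinum drug that crosslinks DNA, or both, with 4 doses on days 1 to 4 and harvest on day 6. Control cells received the solvent DMSO, though the array titles call them untreated. Each treatment was measured on 1 Agilent array that held treated RNA in the Cy3 channel and control RNA in the Cy5 channel. All cells of every group carried the reporter. The text of the study's Results gives another carboplatin dose than the labels, while its figure legend on the expression changes gives 20 µM. The dyes were never exchanged and no treatment was repeated, so no test was possible and any preference of a probe for a dye is part of its value.

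Log2 changes are those of the treated over the control signal, and a gene was counted as higher or lower from 1.5-fold on, a log2 change of 0.58 in size. The only error available is that between repeated spots of a probe on the same array, with an SD of 0.078, 0.075 and 0.076 log2 units on the decitabine-labelled, carboplatin-labelled and combination arrays, over 264 probes outside array columns 1 to 9. Signals well above background made up 69.0, 70.3 and 68.2 % of gene spots in the control channel and 65.8, 68.4 and 68.5 % in the treated one. Of the 76 members measured outside columns 1 to 9, 73 were well above background in all 6 channels. No member spot was saturated.

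Treatments are named as labelled, and 3 values in a row are those of the decitabine-labelled, the carboplatin-labelled and the combination array, in this order. Of the measured p53 targets, 17 of 17 were at least 1.5-fold higher on the decitabine-labelled array, with a median log2 change of 2.08, against 8 of 17 and 0.53 on the carboplatin-labelled array and 17 of 17 and 1.94 on the combination array. The shares of all genes that were higher on the 3 arrays were 4.89, 2.77 and 7.34 %. Of 12 measured cancer-testis genes, which demethylating drugs are known to raise, 0, 2 and 2 were at least 1.5-fold higher on the 3 arrays. A count of 0 of 12 is near what the share of all genes gives, and 2 of 12 is above the 2.77 and 7.34 % of all genes. PRAME, 1 of the 2 on the carboplatin-labelled and combination arrays, gave -0.06, 3.09 and 2.95. The other was SYCP3, at 0.64, on the carboplatin-labelled array and TKTL1, at 0.88, on the combination array. Their probes were dim, at a mean log2 brightness of 6.39 and 6.79. GAGE1, MAGEA1, MAGEA4, MAGEC2, CTAG2, SSX1 and DAZL were not well above background in any channel, so the counts say little about the class. The p53 targets were thus the more often higher on the single-drug array that is not labelled with the DNA-damaging platinum drug, and whether the labels of those arrays were exchanged was not tested. Of 11 measured markers of colon epithelium, 9, 8 and 7 were well above background in the control channel of the same arrays, and CDX1 and GPA33 in none. Of 12 markers of other cell types 8 passed as well, while PTPRC, COL3A1, DES and PECAM1 did not.

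Oxidative phosphorylation moves electrons from NADH through complex I, or from succinate through complex II, to complex III, and on by way of cytochrome c to complex IV, where oxygen is reduced. Complexes I, III and IV pump protons across the inner mitochondrial membrane, and complex V, the ATP synthase, makes ATP as the protons flow back. Most subunits are encoded in the nucleus, while a core set in every complex but the second is encoded in mitochondrial DNA, and colon cancer cells commonly draw on glycolysis beside respiration.

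The probes of the genes that stood apart are given first, since each value rests on 60 bases. They are written as deposited, 5′ to 3′, with positions on hg19, and capitals mark bases that probes of the same gene share.
NDUFA9, chr12:4794439-4796110, plus strand: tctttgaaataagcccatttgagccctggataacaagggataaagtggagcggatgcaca
NDUFA9, chr12:4777675-4778950, plus strand: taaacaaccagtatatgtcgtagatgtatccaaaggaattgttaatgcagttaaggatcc
ATP5G1, chr17:46970798-46971772, plus strand: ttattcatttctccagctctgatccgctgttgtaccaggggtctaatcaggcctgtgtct
NDUFV3, chr21:44328997-44329056, plus strand: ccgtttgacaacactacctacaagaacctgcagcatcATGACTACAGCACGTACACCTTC
NDUFV3, chr21:44329034-44329093, plus strand: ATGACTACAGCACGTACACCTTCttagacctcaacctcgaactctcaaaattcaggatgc
NDUFV3, chr21:44323526-44323585, plus strand: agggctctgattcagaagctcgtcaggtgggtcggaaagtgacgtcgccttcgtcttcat
ATP5I, chr4:667153-667722, minus strand: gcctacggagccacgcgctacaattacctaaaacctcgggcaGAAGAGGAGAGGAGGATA
ATP5I, chr4:667111-667170, minus strand: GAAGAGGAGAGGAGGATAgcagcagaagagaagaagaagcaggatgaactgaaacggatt
Both NDUFA9 probes, the ATP5G1 probe and the first ATP5I probe spanned more of the genome than 60 bases, so they cross an exon junction. The first pair of NDUFV3 probes shared 23 bases and the ATP5I pair 18, so such a pair is not a pair of independent measurements. The NDUFA9 probes and the remaining NDUFV3 probe shared no stretch with another probe of their gene.

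Nuclear subunit genes were, as a group, little different between treated and control cells on any of the 3 arrays. The median log2 change of the 76 genes outside columns 1 to 9 was -0.02, -0.03 and -0.04, where all genes had medians of -0.02, 0.00 and 0.00. On the decitabine-labelled array 1 gene was at least 1.5-fold higher, where 4.89 % of all 17458 genes were, and 2 were lower, where 5.09 % were. On the carboplatin-labelled array no subunit gene reached 1.5-fold either way, against 2.77 % of all genes higher and 1.39 % lower. With both drugs 1 was higher, against 7.34 %, and 2 were lower, against 5.88 %. A log2 change smaller than 0.25 was seen for 71.1, 78.9 and 64.5 % of the subunit genes and for 65.8, 71.4 and 60.7 % of all genes.

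These values depend on the removal by loess of a trend of the log ratio with brightness, in which dye and treatment cannot be told apart. When log ratios were centred on the array median in place of loess, 44, 41 and 35 subunit genes were lower and 0, 2 and 0 higher on the 3 arrays. The lower ones made up 57.9, 53.9 and 46.1 % of the 76, against 26.2, 18.1 and 21.3 % of all genes. The same step made 49.1, 37.1 and 39.6 % of the other genes of mean log2 brightness 10 or more lower. It moved their median to -0.58, -0.50 and -0.48, beside -0.63, -0.60 and -0.57 for the subunit genes.

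**Figure D1:**
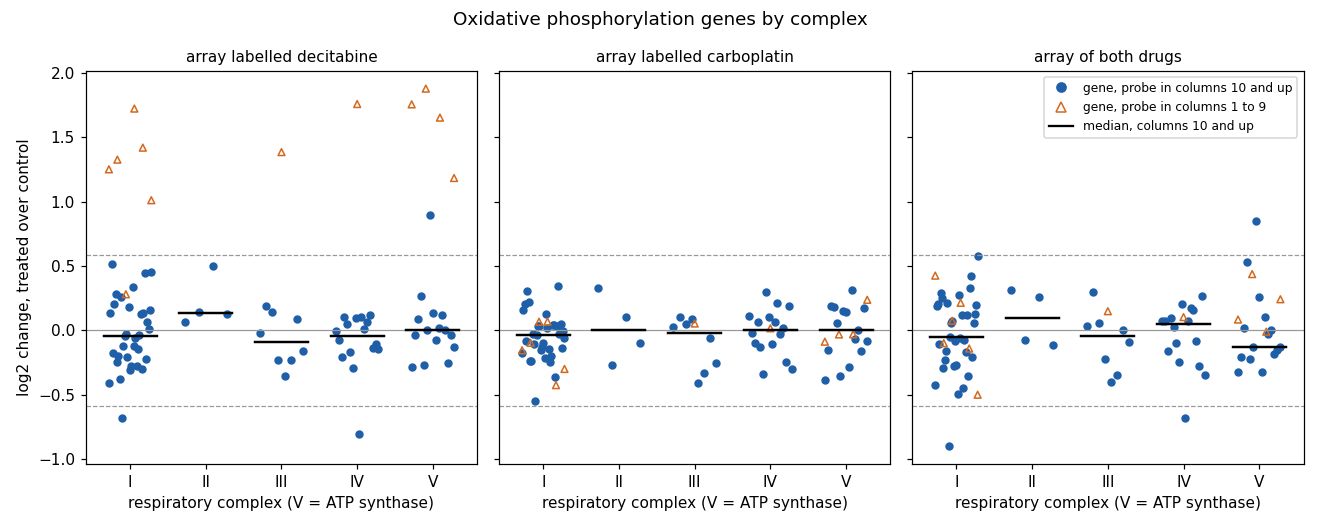
Log2 change of treated over control for each subunit gene, by respiratory complex, on the 3 arrays. Filled points are genes measured in array columns 10 and up, open triangles genes with a probe in columns 1 to 9, black bars medians of the filled points and dashed lines 1.5-fold. Filled points lie around 0 on all arrays, with 3 past the lines on the decitabine-labelled array, 0 on the carboplatin-labelled one and 3 with both drugs, while all triangles but 1 lie above 1.0 on the decitabine-labelled array.

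Complex I, NADH dehydrogenase, had medians of -0.05, -0.04 and -0.05 over its 33 genes on the 3 arrays. NDUFA9, a subunit of the arm that joins the peripheral and membrane parts of the enzyme, was the lowest of them on all 3 arrays. Its brighter probe gave log2 changes of -0.68, -0.55 and -0.90, and its other probe -0.76, -0.72 and -0.99. Both probes were past 1.5-fold lower on each array, by up to 1.98-fold, except the brighter one on the carboplatin-labelled array, which stayed short of it. The control levels of the brighter probe were 13.62, 13.67 and 13.57 and its treated levels 12.94, 13.11 and 12.67, on the log2 scale after scaling between arrays. The 3 control levels were close together, and every treated level lay below all of them. The dyes were never exchanged, and whether a dye preference of these probes bears on this was not tested.

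At the upper end of complex I were NDUFA11, NDUFS6 and NDUFV3. NDUFV3, a small subunit beside the NADH-oxidizing core, gave 0.45, -0.06 and 0.58 with its brightest probe and 0.45, -0.11 and 0.60 with the overlapping one. Its separate probe, further toward the start of the gene, gave 0.73, 0.42 and 0.85. All 3 probes were above 0 with both drugs and on the decitabine-labelled array. The 1.5-fold limit was passed by the separate probe on those arrays and, with both drugs, by 1 of the overlapping pair. On the carboplatin-labelled array no probe reached it. With median centring in place of loess the brightest probe gave -0.14, -0.57 and 0.06, so its direction on the decitabine-labelled array turned.

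NDUFS6, an accessory subunit that binds zinc, was among the higher genes on each array, with 0.45, 0.34 and 0.43. NDUFA11, a membrane subunit, was highest on the decitabine-labelled array with 0.52 and had 0.21 on either of the other arrays. Its probe lay in column 12, and its control level differed most of all members between arrays, by 0.39, where the median range of control levels over the 76 genes was 0.14. NDUFA4, an accessory protein that was first placed in complex I and later in complex IV, gave -0.24, -0.24 and -0.29.

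Complex II, succinate dehydrogenase, is the only complex with all its subunits encoded in the nucleus, and it also belongs to the tricarboxylic acid cycle. None of its 4 genes reached 1.5-fold. SDHA, the flavoprotein that oxidizes succinate, had log2 changes of 0.07, 0.33 and 0.31 on the 3 arrays, and its other probe gave -0.10, 0.37 and 0.27. SDHB, the iron-sulphur subunit, gave 0.14, -0.27 and -0.07. SDHC, a membrane anchor, gave 0.50, 0.11 and 0.26 with a probe in column 10, at the border of the columns described further on. SDHD, the other anchor, was near 0 on all arrays with 0.13, -0.10 and -0.11, and its 4 probes spanned 0.04 to 0.13 on the decitabine-labelled array. By the first SDHA probe, SDHA and SDHB, the catalytic pair, thus lay close together on the decitabine-labelled array and apart on the other arrays. By its other probe SDHA lay at -0.10 beside 0.14 for SDHB on the decitabine-labelled array.

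Complex III, the cytochrome bc1 complex, passes electrons from ubiquinol to cytochrome c. Its 8 genes had medians of -0.09, -0.02 and -0.04, and none reached 1.5-fold. UQCRC2, a core protein of the matrix side, was the lowest on every array with -0.35, -0.41 and -0.40. UQCR11, a small accessory subunit, was the highest on every array with 0.19, 0.10 and 0.30. UQCRFS1, the Rieske iron-sulphur protein, gave -0.23, -0.33 and -0.35 with its brighter probe and -0.25, -0.42 and -0.49 with the other, short of 1.5-fold.

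Complex IV, cytochrome c oxidase, has several subunits that come as a common form and a form of restricted tissues such as heart, muscle or testis. The 16 genes outside columns 1 to 9, among them COX4NB, which is no subunit, had medians of -0.04, 0.00 and 0.05. None of the common forms reached 1.5-fold. COX4I1 gave -0.01, 0.11 and 0.07, COX6B1 0.09, 0.10 and 0.21, and COX7A2 0.06, -0.03 and 0.15. COX7B gave -0.14, -0.24 and -0.28, COX7A2L, a factor of supercomplex formation, 0.12, 0.02 and -0.08, and COX6A1 was the lowest of the complex on the carboplatin-labelled array, with -0.17, -0.34 and -0.10 over the arrays. A dimmer probe of COX6A1 gave 0.08, 0.08 and -0.07.

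The restricted forms were mostly at background. COX4I2, COX7A1, COX7B2 and, in column 3, NDUFA4L2 were not well above background in both channels of any array. COX6A2, the heart and muscle form, was well above background in all 6 channels, with -0.29, 0.30 and -0.25. COX6B2, the testis form, was the lowest gene of complex IV on the arrays labelled decitabine and both drugs, at -0.80 and -0.69, with -0.11 on the carboplatin-labelled array. This rests on a dim probe, and the other probe of COX6B2, also above background, gave -0.08, -0.14 and -0.02. COX6B2 was the only 1 of 31 genes with several probes whose probes lay over 1.5-fold apart on an array, and over those 31 genes the widest range among probes on any array had a median of 0.17.

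Complex V, the ATP synthase, had medians of 0.00, 0.00 and -0.13 over 15 genes, among them ATP5S and ATP5SL, which are no subunits. ATP5G1, ATP5G2 and ATP5G3 encode the same mature subunit c, the proton-carrying ring, with different import signals. ATP5G1 was higher in treated cells on the arrays labelled decitabine and both drugs, with log2 changes of 0.90, or 1.86-fold, and 0.85, or 1.80-fold, against 0.15 on the carboplatin-labelled array. Its control levels of 12.79, 12.75 and 12.67 were alike, while the treated levels were 13.69, 12.90 and 13.52. ATP5G2 gave 0.13, 0.14 and 0.26. ATP5G3 gave -0.07, -0.28 and -0.32 with its brighter probe and 0.03, 0.03 and 0.10 with the other. Of the 3 genes for subunit c, 1 was thus past 1.5-fold and it was so on 2 arrays, with a single probe. With median centring in place of loess ATP5G1 gave 0.32, -0.36 and 0.36, short of 1.5-fold on each array.

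ATP5A1, the alpha subunit of the catalytic head, was the lowest gene of complex V on the single-drug arrays, with -0.29, -0.39 and -0.32 over the arrays. ATP5B, the catalytic beta subunit, gave -0.03, -0.15 and -0.20. ATP5H, a subunit of the peripheral stalk, was the highest on the carboplatin-labelled array with 0.31, and had 0.02 and 0.10 on the arrays labelled decitabine and both drugs. ATP5D, the delta subunit of the central stalk, gave 0.53 with both drugs by its brighter probe and 0.12 by its other one.

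**Figure D2:**
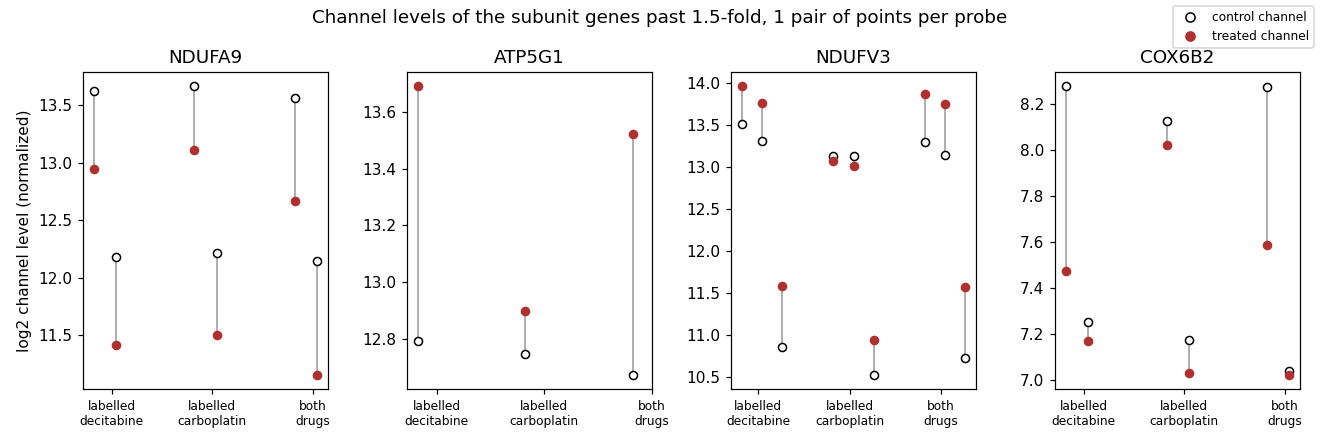
Normalized log2 level of the control channel (open) and the treated channel (filled) on the 3 arrays, with 1 pair of points per probe, for the 4 genes with a probe past 1.5-fold outside columns 1 to 9. Each panel has its own scale. For NDUFA9 each treated point lies below the control point of its probe, for ATP5G1 the treated level is 13.69 and 13.52 on the arrays labelled decitabine and both drugs against 12.90 on the carboplatin-labelled one, and for COX6B2 only the brighter probe shows a gap past 1.5-fold.

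Members with a probe in array columns 1 to 9 were kept apart, since these columns were shifted on the decitabine-labelled array. They held 13 of the 127 member probes, or 10.2 %, and 10.1 % of all gene spots. On that array the median log2 change of all gene spots was 0.65 in column 1, 0.87 in column 8 and 0.38 in column 9, but 0.01 in column 10. The 12 members there, of which ATP5SL is no subunit, had a median of 1.40, and 11 of them were at least 1.5-fold higher. Of all 2883 genes of these columns 62.9 % were, with a median of 0.94. Of the 934 genes there of mean log2 brightness 10 or more, 93.8 % were higher with a median of 1.43, and the 8 subunit genes as bright as this had a median of 1.69.

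The genes measured in these columns alone were ATP5I, ATP5O, COX8A, NDUFA3, NDUFA8, NDUFB5, NDUFC1 and NDUFA4L2. ATP5I and ATP5O are subunits of the ATP synthase, and COX8A is the common form of a small subunit of complex IV. COX8A gave log2 changes of 1.76, 0.02 and 0.10 on the 3 arrays, and ATP5O gave 1.65, -0.03 and -0.01. ATP5I gave 1.76, -0.09 and 0.08 with its first probe and 1.69, 0.06 and 0.21 with the overlapping one. Each was far above 0 on the decitabine-labelled array only.

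Of the complex I genes in these columns, NDUFA8 gave 1.72, 0.07 and 0.21, NDUFA3 gave 1.33, -0.10 and -0.10, and NDUFB5 gave 1.42, -0.43 and -0.14. NDUFC1 gave 1.01, -0.30 and -0.50, and so was below 0 on the arrays without the shift. NDUFA4L2 was not above background. The shift lay in the control channel: over the 12 genes the control level of the decitabine-labelled array minus that of the carboplatin-labelled array had a median of -1.36 log2 units, and minus that of the combination array -1.29, where the treated levels gave 0.20 and 0.13. COX8A had control levels of 13.97, 15.51 and 15.47 and treated levels of 15.73, 15.53 and 15.57.

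A total of 4 genes had a probe on either side of the border. On the decitabine-labelled array ATP5L gave 1.88 in column 6 and -0.26 in column 47, UQCR11 gave 1.39 in column 5 and 0.19 in column 30, and NDUFA10 gave 1.252 in column 3 and 0.14 in column 47. ATP5SL, which is no subunit, gave 1.18 in column 2 and -0.13 in column 27. The same gene was thus past 1.5-fold or near 0 depending on where its probe lay, with medians of 1.32 in the columns and 0.00 outside. On the carboplatin-labelled array both medians were 0.01, and with both drugs they were 0.33 and 0.03.

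A list of mitochondrial genes raised by carboplatin that accompanied the study holds 7 of the members, ATP5I, ATP5L, ATP5O, COX8A, NDUFA3, NDUFA8 and NDUFC1. That list was chosen on these arrays and is not independent evidence of a direction. All 7 had a probe in columns 1 to 9. By those probes 7 were at least 1.5-fold higher on the decitabine-labelled array, 0 on the carboplatin-labelled array and 0 with both drugs, where 93.8, 3.05 and 11.2 % of all genes of mean log2 brightness 10 or more in these columns were.

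**Figure D3:**
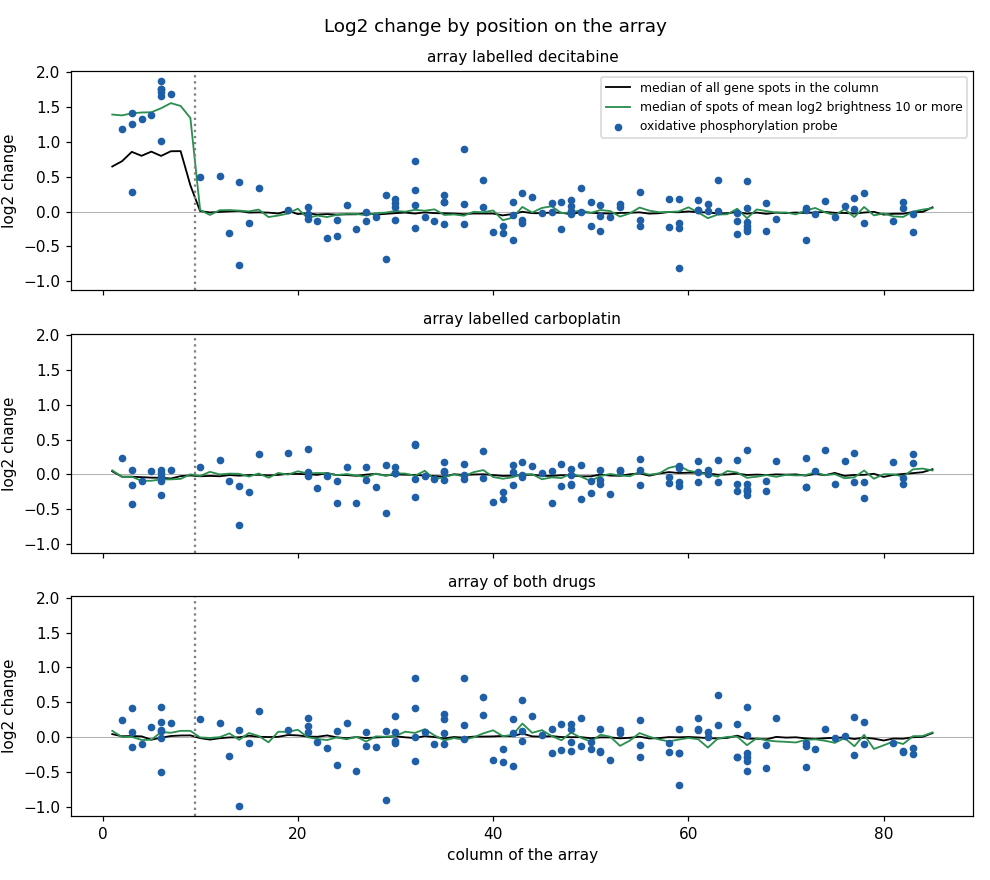
Log2 change against the column of the array, 1 panel per array. Lines are medians of all gene spots (black) and of spots of mean log2 brightness 10 or more (green) in each column, points are the 127 member probes, and the dotted line ends column 9. On the decitabine-labelled array both lines and the points step down from columns 1 to 9 to values around 0, and the other arrays have no step.

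Subunits encoded in mitochondrial DNA stood apart from the nuclear ones on the carboplatin-labelled array. Of 13 such genes 5 were measured outside columns 1 to 9. On the carboplatin-labelled array 4 of the 5 were at least 1.5-fold lower, where 1.39 % of all genes and 0 of 76 nuclear members were, and their median log2 change was -0.65. On the decitabine-labelled array none of the 5 reached 1.5-fold and the median was -0.20. With both drugs 1 was higher, against 7.34 % of all genes, and the median was 0.25.

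COX1, the catalytic subunit of complex IV, gave -0.20, -1.35 and -0.02 on the 3 arrays. CYTB, the cytochrome b of complex III, gave -0.25, -0.87 and 0.11. The files place the COX1 probe in chromosome 1 at chr1:567567-567626, where a nuclear copy of mitochondrial DNA lies, and the other probes on the mitochondrial genome. In both genes the carboplatin-labelled array was the lowest.

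ND4 and ND5, proton-pumping subunits of complex I, behaved alike. ND4 gave -0.30, -0.64 and 0.25, and ND5 gave -0.19, -0.65 and 0.28. ND4 had control levels of 15.18, 15.19 and 15.15 and treated levels of 14.88, 14.56 and 15.40, so the arrays parted in the treated channel alone. For COX1 the control levels of 18.08, 18.37 and 17.95 differed as well, beside treated levels of 17.88, 17.02 and 17.93. Control levels were also highest on the carboplatin-labelled array for CYTB, at 18.02, 18.24 and 17.90, and for ND6, at 7.61, 7.92 and 7.44. Those of ND5 were 15.54, 15.36 and 15.40.

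ND6, the subunit read from the opposite strand of mitochondrial DNA and known to lack a stable poly(A) tail, went another way. It gave 0.52, 0.08 and 0.77, so it was the highest of the 5 on each array. RNA was copied from an oligo(dT) primer here, and whether that bears on the ND6 values was not tested. The ND6 probe was also dim, at a mean log2 brightness of 7.88. ND3 was measured only in columns 5 and 8. Its probes gave -0.48 and -0.84 on the carboplatin-labelled array, 0.59 and 0.19 with both drugs, and 1.87 and 1.16 on the decitabine-labelled array, where those columns were shifted.

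The 4 lower genes were also among the brightest of the array, at a mean log2 brightness of 15.1 to 17.9, and none was saturated. Among 418 other genes of mean log2 brightness 15 or more, 21 were at least 1.5-fold lower on the carboplatin-labelled array, the median was -0.07 and the lowest was -1.11. Nuclear members as bright as this, 22 in number, had a median of -0.14 and a lowest value of -0.39. The part of brightness in the mitochondrial values was not tested. When log ratios were centred without loess the medians of the 5 genes were -0.96, -1.27 and -0.38, so their direction with both drugs turned, while the carboplatin-labelled array kept the lowest.

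**Figure D4:**
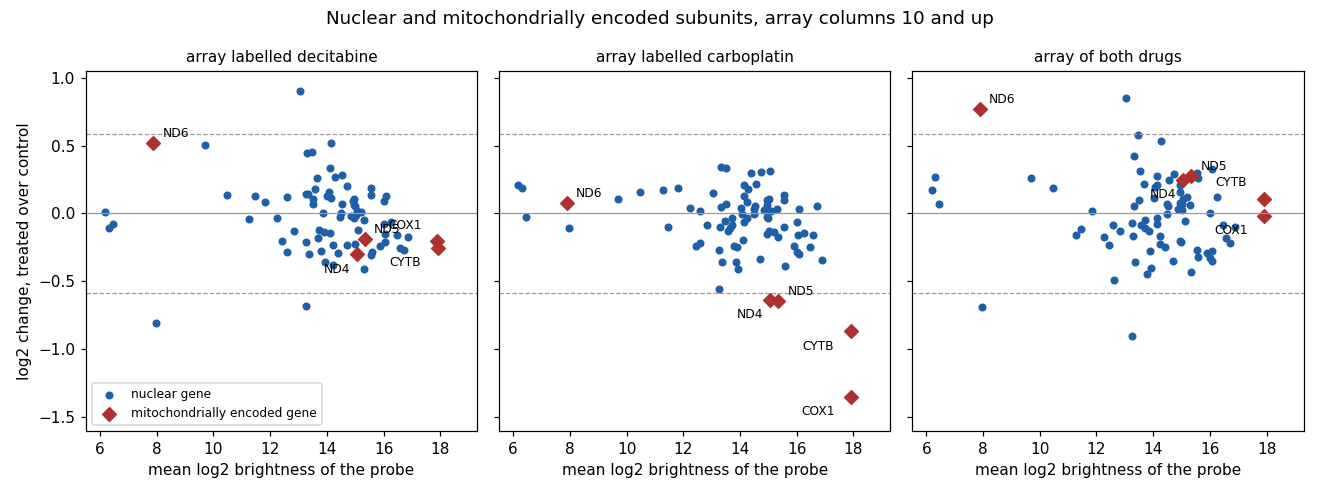
Log2 change against mean log2 brightness for nuclear members (circles) and mitochondrially encoded subunits (diamonds) outside columns 1 to 9, 1 panel per array, with dashed lines at 1.5-fold. On the carboplatin-labelled array COX1, CYTB, ND4 and ND5 lie below the lower line, where no nuclear gene lies, and ND6 at 0.08.

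The combination array differed little from either single-drug array in the nuclear subunits. The 3 comparisons are described side by side, since whether their control channels hold the same RNA is not stated. The log2 change with both drugs minus that on the decitabine-labelled array had a median of -0.01 over the 76 genes, a lowest value of -0.31 for NDUFA11 and a highest of 0.37 for COX7B2, which was at background, so none was past 1.5-fold where 2.17 % of all genes were. Against the carboplatin-labelled array the median was 0.00, and 2 genes were past 1.5-fold, ATP5G1 at 0.70 and NDUFV3 at 0.64, where 7.46 % of all genes were past it either way.

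Treated channels were also set directly against each other, which compares signals of 1 dye. Between both drugs and the decitabine-labelled array no member differed by 1.5-fold, against 2.52 % of all genes, with a median of -0.09 and an SD of 0.14 over genes, and the control channels of the same arrays had -0.08 and 0.09. Between both drugs and the carboplatin-labelled array NDUFV3 was higher by 0.80 and ATP5G1 by 0.62, and COX6A2 stood at -0.67, which is 3 of 76 members against 8.4 % of all genes. The control channels of those arrays differed by 0.17, -0.07 and -0.13 for the same genes, and by an SD of 0.11 over all 76. Between the single-drug arrays SDHB, at 0.68, and NDUFB3, at 0.67, were past 1.5-fold as well as NDUFV3 and ATP5G1, 4 of 76 members against 9.37 % of all genes either way. The control channels of those arrays differed the same way by 0.27 for SDHB, 0.36 for NDUFB3 and 0.38 for NDUFV3, and by 0.04 for ATP5G1. The log2 change on the decitabine-labelled array minus that on the carboplatin-labelled array gave another set: ATP5G1 was past 1.5-fold at 0.75, and COX6B2, by the dim probe, and COX6A2 were past it the other way at -0.70 and -0.59, where 8.2 % of all genes were past it either way. NDUFV3 stood at 0.51, SDHB at 0.41 and NDUFB3 at 0.31 there, short of 1.5-fold.

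Other genes of the respiratory machinery were near 0 too. The 7 measured subunits and partners that the name rule misses had medians of 0.15, -0.08 and 0.03 on the 3 arrays, and none reached 1.5-fold. They include CYCS, cytochrome c itself, at 0.18, -0.43 and -0.09. Of 46 assembly factors, which build the complexes but are no part of them, 2 were higher on the decitabine-labelled array, 0 on the carboplatin-labelled one and 1 with both drugs. None was lower on any array. Of all genes, 4.89, 2.77 and 7.34 % were higher and 5.09, 1.39 and 5.88 % lower. NDUFAF3, a complex I assembly factor, gave 0.74, 0.14 and 0.75, and COA4, a complex IV factor, 0.72, 0.32 and 0.57.

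Of 20 regulators of mitochondrial biogenesis 1 was higher and 1 lower on the decitabine-labelled array, 0 on the carboplatin-labelled one and 1 higher with both drugs, beside the same shares of all genes higher and 5.09 % of all genes lower on the first array. ESRRA, an orphan nuclear receptor that drives respiratory genes, gave 0.78, 0.21 and 0.83. GABPA, the DNA-binding subunit of an ETS factor of many respiratory promoters, gave -0.59, -0.33 and -0.55. TFAM, which packs and transcribes mitochondrial DNA, gave -0.25, -0.34 and -0.48, the lowest regulator on the carboplatin-labelled array.

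The 22 measured genes of mitochondrial protein import, the route by which nuclear subunits enter, had medians of 0.29, 0.08 and 0.28, and 3, 1 and 2 of them were higher with none lower, against the shares of all genes given above. GRPEL1, a cofactor of the matrix import motor, was higher on all 3 arrays with 1.04, 0.82 and 1.16. TOMM20, an import receptor, was the lowest on all 3, with -0.13, -0.54 and -0.26.

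**Figure D5:**
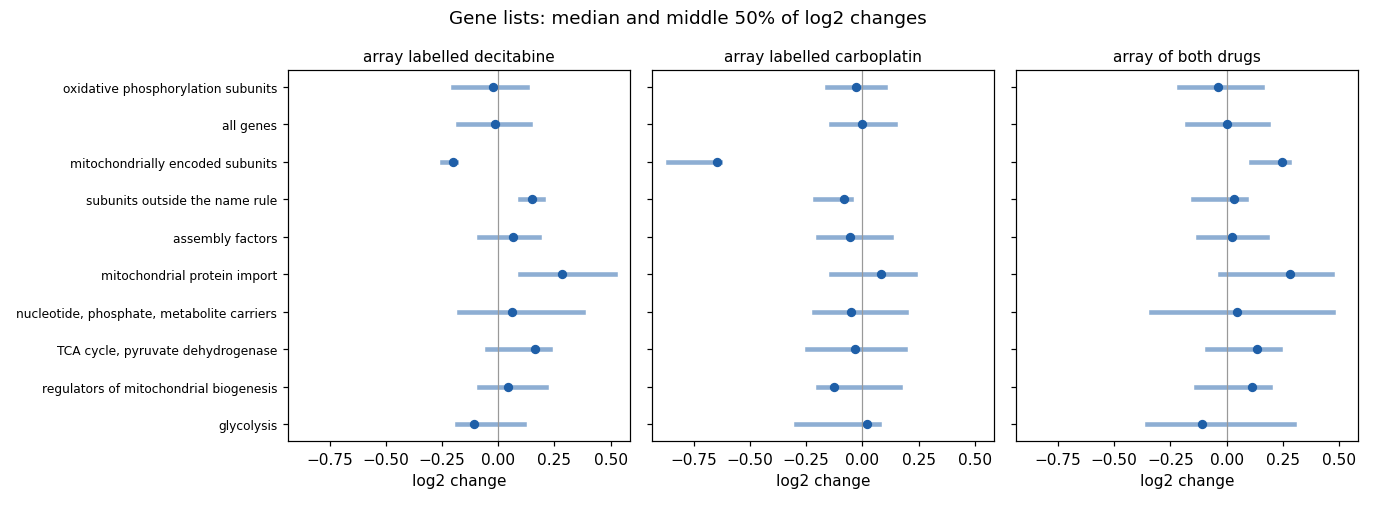
Median (point) and middle 50 % (bar) of the log2 changes of each gene list outside columns 1 to 9, 1 panel per array. The oxidative phosphorylation subunits lie with all genes around 0 on each array, and the mitochondrially encoded subunits lie at -0.20, -0.65 and 0.25.

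Promoters were compared for what the members share beyond their names. Of the genes that are subunits, 67 had a promoter in the RefSeq set of GRCh38.p14, from 250 bases before to 50 after the start. The letters GCGCATG, a core of the sites of the respiratory factor NRF1, occurred on either strand in 14 of them, or 20.9 %, and in 4.67 % of 27305 promoters. CCGGAAG, a core of ETS factors, occurred in 19, or 28.4 %, and in 10.7 % of all. ATGGCGG, a core of the YY1 motif, occurred in 19 as well, against 5.72 % of all. The NRF1 letters end and the YY1 letters begin with ATG, so both can lie over the same bases. CCAAT was found in 34.3 % of the member promoters and 35.7 % of all, and TATAAA in 10.4 % and 11.95 %. The NDUFA9 promoter held the YY1 and the TATAAA letters, that of NDUFV3 the YY1 letters and CCAAT, and that of ATP5G1 CCAAT alone. A match describes letters only, and these promoters were not assayed.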

How the data were processed

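The deposited scanner files hold spot intensity in both channels, read per the file headers by Agilent Feature Extraction 9.5.3.1 on an hg19 probe layout, whereas the submitters' processing notes name version 8.5.1.1, with limma and R 3.0.2. The authors also deposited a table of log2 ratios, loess normalized. Its direction, treated over control, was set from its correlation with the scanner values (r = 0.87, 0.84 and 0.94), and its background step is not given in the sources used here. Here mean intensities were background corrected by normexp (offset 50) and loess normalized within each array with limma 3.58.1 in R 4.3.3. Control spots and 276, 111 and 89 outlier spots were left out. Channel levels came from Aquantile scaling. Spots of a probe were averaged, the brightest probe stood for a gene, and RefSeq named 29381 of 41000 probes and all 84 members. Steps after normalization used pandas 2.3.3 and matplotlib 3.10.9, and the normalization was tested on simulated data. No test was run, as each treatment has 1 array.

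Members and lists were chosen with earlier results of these data known. Named were genes at 1.5-fold, the extremes of each complex per array, tissue isoforms, SDHA to SDHD, genes measured only in columns 1 to 9, genes whose probes disagreed, and up to 4 genes at 1.5-fold from each other list. Further genes were named after their values were seen: UQCRFS1, NDUFB3, CYCS, TFAM, TOMM20, ATP5B, ATP5D, ATP5L, NDUFA10, ATP5SL and ND3. Alternatives tried were the background step, the scaling, the filters, the fold and the set of members.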

Additional observations from a re-analysis of the deposited data

How the results depend on the processing

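The number of arrays limits every value, and error between cultures is unknown. No paired analysis was possible because each treatment has 1 array. Values are in the array order of the report. Median centring gave medians of -0.63, -0.60 and -0.57, with 0, 2 and 0 genes higher and 44, 41 and 35 lower. Of all genes, 26.2, 18.1 and 21.3 % were lower by that step. The authors' table gave medians of -0.125, -0.155 and -0.17. The scanner software's processed signals gave 2, 1 and 3 genes higher. Averaging the probes of a gene gave 1, 1 and 1 lower and 2 higher with both drugs. Without restricted isoforms and names that are no subunit 1 gene was lower on the decitabine-labelled array, and 1 with both drugs. At a lower threshold, a log2 change of 0.32 in size, 6, 2 and 5 genes were higher and 5, 7 and 10 lower, against 11.9, 10.6 and 16.03 % and 13.8, 8.74 and 14.95 % of all genes, and at 2-fold there were 0 of either kind on every array. The median of members in columns 1 to 9 on the decitabine-labelled array was 1.40, and that of the 4 genes with another probe outside was 0.0040 by that probe. A loess fit without these columns gave them no value, and left the counts outside within 1.5 times. Treated channels set directly against each other gave a median of -0.092 in place of -0.01 for both drugs against the decitabine-labelled array. For the mitochondrially encoded subunits, with alternatives chosen after seeing the data, centring gave -0.96, -1.27 and -0.38. The processed signals gave -0.052 on the decitabine-labelled array, and the authors' table -0.73 on the carboplatin-labelled one and 0.08 with both drugs. Among the named genes for which alternatives were run, no called value changed sign. Median centring took ATP5G1 to 0.32 and 0.36 on the arrays labelled decitabine and both drugs, short of 1.5-fold. It took the brightest NDUFV3 probe, not past 1.5-fold on the decitabine-labelled array, from 0.45 to -0.14 there.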

Other observations

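Genes that feed or bypass the respiratory chain were described by the same counts. Of 18 measured glycolytic genes 0, 1 and 2 were at least 1.5-fold higher and 1, 3 and 1 lower on the 3 arrays, with medians of -0.11, 0.02 and -0.11. LDHA, the lactate dehydrogenase subunit of glycolytic cells, was lower on all 3 arrays with -0.67, -0.70 and -0.70, and PGK1, phosphoglycerate kinase, had its lowest value on the carboplatin-labelled array with -0.15, -0.73 and -0.43. SLC16A3, a lactate exporter, gave 0.39, 0.50 and 0.82, and PFKL, the liver form of phosphofructokinase, gave 0.27, 0.75 and 0.67.

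Of 23 genes of the tricarboxylic acid cycle and pyruvate dehydrogenase 1, 2 and 2 were higher and 0, 1 and 1 lower, with medians of 0.16, -0.03 and 0.14. SUCLA2, the ATP-forming subunit of succinate-CoA ligase, gave -0.31, -0.89 and -0.74, while SUCLG2, its GTP-forming counterpart, gave 0.21, 0.60 and 0.27. IDH3A, a subunit of the NAD-dependent isocitrate dehydrogenase, gave 0.68, 0.23 and 0.80. Of 13 mitochondrial carriers and channels, which include the outer membrane channels VDAC1, VDAC2 and VDAC3, there were 2, 0 and 1 higher and none lower, with medians of 0.06, -0.05 and 0.05. UCP2, an uncoupling protein, gave 0.68, 0.19 and 0.61, and SLC25A4, an ADP/ATP carrier, gave 0.65, 0.17 and 0.54. For comparison, 4.89, 2.77 and 7.34 % of all genes were higher and 5.09, 1.39 and 5.88 % lower.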
